A study of Mus musculus with 4 samples.

Results

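The kinesin genes of the mouse were examined for N6-methyladenosine (m6A) in c-Kit+ foetal liver cells. They were taken by name, as every protein-coding gene of the GENCODE M21 annotation whose symbol is Kif followed by a digit, which gave 39 of 21951 protein-coding genes. Of these, 38 are motor genes, and Kif1bp encodes a protein that binds kinesin motor domains and is no motor itself. The measurement was m6A meRIP-seq, in which RNA is fragmented, fragments that carry m6A are captured with an antibody (IP), and the captured and the unselected (input) fragments are sequenced. The series holds 4 samples, 2 IP replicates and 2 input replicates, and the peaks of either IP replicate were examined as 2 separate lists. The cells came from C57BL/6 mice and were enriched for Kit, a receptor of stem and progenitor cells, with magnetic beads (MACS). The study's methods name them as Ythdf2CTL cells, which are controls of its Ythdf2 deletion model: they carry floxed Ythdf2 alleles (Ythdf2 fl/fl), from which YTHDF2 is made as a fusion with GFP, and no Cre. YTHDF2 is a protein that binds m6A and speeds the decay of the RNA. Per the labels, the IP was made from total RNA and the input from polyA RNA. Foetal age and the number of foetuses per sample are not given in the sources used here, and the methods name the replicates as biological.

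Kinesins are motors that use ATP to move along microtubules or to shorten them. In dividing cells they build the spindle, move chromosomes and complete cytokinesis, and in all cells they carry vesicles, mRNAs and organelles. Progenitors of the foetal liver divide fast as the blood system expands. m6A is placed on nascent mRNA by the METTL3 and METTL14 writer complex, mostly at adenosines in a GGAC-like setting, near stop codons and in long exons.

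A peak is a stretch where IP reads pile up over the local background, and its summit is the highest point. The deposited fold enrichment sets the IP pile-up against that background at the summit, after scaling for library size (IP over control library, 0.874 and 1.05 for replicates 1 and 2) and with 1 added to both sides. The reads given below are unscaled, so their plain ratio differs from the fold, most of all where the background is low. The deposited −log10 q states how far the pile-up stands above the background within its own list after correction for the many positions tested. A gene was counted as carrying m6A in a replicate when any of its annotated exons held a summit. The lists hold 15635 and 14872 peaks in replicates 1 and 2, and 12710 and 12204 of their summits lay in exons. The IP reads piled up at a summit, recovered from the deposited fold and p, had a median of 57 in either list. Among marker genes, 8 of 11 progenitor and blood lineage genes had a summit in both replicates, as did 2 of 6 hepatoblast genes, 1 of 4 macrophage genes and 1 of 3 endothelial genes. With 30.9% of all protein-coding genes having one, the last 3 counts lie close to the share of all genes and do not bear on whether those cells were present. Kit itself, Gata1 and Myb had none, and neither did Alb.

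The kinesin sites with the strongest peaks are shown first, because the positions below refer to them. The sequences are those of the 7 genes, among the 12 kinesin genes with the highest −log10 q, whose strongest peak had a GGAC within 50 nt of the summit in both replicates. Each runs 5′ to 3′ on the sense strand of the GENCODE M21 transcript (GRCm38) over 30 bases, and capitals mark the GGAC nearest to the summit of replicate 1.

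Kif13b, chr14:64803534-64803563, plus strand: cagcaatgctaggGGACagactctggggag
Kif13a, chr13:46752354-46752383, minus strand: agaatgccatgcaGGACtgcttcatgttca
Kif24, chr4:41394134-41394163, minus strand: tgcaaatgcttctGGACtcatggctcccct
Kif11, chr19:37376452-37376481, plus strand: aagaggcctgcgtGGACctcggggacgccg
Kif1bp, chr10:62559481-62559510, minus strand: agcccctgactgtGGACctgaacccacagt
Kif1b, chr4:149238066-149238095, minus strand: ccagggatgtctgGGACactgttggggtag
Kif18a, chr2:109333418-109333447, plus strand: tttatacgccagaGGACtgcaaaaaagctc

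The A of the GGAC lay 15 and 12 nt downstream of the summit in Kif13b (replicates 1 and 2), 17 and 14 nt in Kif13a, and 37 and 18 nt in Kif1b. In Kif11 it lay upstream, at −4 nt, in both, and in Kif18a at −12 and 15 nt. In Kif24 and Kif1bp the nearest GGAC of replicate 2 was a different one, at 41394191 and 62559417. In all 7 windows the base after the GGAC was A, C or T, so each also reads as DRACH. That is the form in which m6A is usually found: any base but C, a purine, the methylated A, a C, and any base but G. As the windows were picked for a GGAC, only that next base was free to vary, so the match to DRACH carries little information. Kif11's window lies in the 5′ UTR and the other 6 lie in coding sequence.

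Exonic m6A summits were found in 19 kinesin genes in replicate 1 and in 21 in replicate 2, against 34.4% and 33.5% of all protein-coding genes. A summit in both replicates was present in 18 of 39 (46.2%, exact 95% interval 30.1 to 62.8), where the same share of all protein-coding genes (30.9%) is the background. These were Kif1b, Kif1bp, Kif1c, Kif2c, Kif3b, Kif3c, Kif4, Kif11, Kif13a, Kif13b, Kif14, Kif16b, Kif17, Kif18a, Kif20b, Kif21b, Kif23 and Kif24. A further 4 had a summit in 1 replicate only (6.19% of all genes), namely Kif20a in replicate 1 and Kif2a, Kif18b and Kif22 in replicate 2. No exonic summit was found in 17 (62.9% of all genes): Kif1a, Kif2b, Kif3a, Kif5a, Kif5b, Kif5c, Kif6, Kif7, Kif9, Kif12, Kif15, Kif19a, Kif21a, Kif26a, Kif26b, Kif27 and Kif28. The interval of the kinesin share holds the share of all genes close to its lower end. A minimum fold enrichment of 4 left 10 kinesin genes with a summit in both replicates, 25.6% against 16.9% of all genes. Peaks need reads, and expression was not measured here, so a gene without a summit may be unmethylated or too little expressed. In bulk cells, fewer cells with a transcript and less of it per cell cannot be told apart.

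By role, 7 of 13 spindle and cytokinesis kinesins had a summit in both replicates (53.8%, 25.1 to 80.8), 4 in 1 replicate and 2, Kif2b and Kif15, in neither. A minimum fold enrichment of 4 left 3 of the 13. Of 15 transport kinesins, 9 had one in both (60%, 32.3 to 83.7) and 6 in neither, and the same minimum left 6 with one in both. Over all protein-coding genes the share with a summit in both was 30.9%, and 16.9% at that minimum. With summits in exons of several genes left out, 8 transport kinesins had one in both, and no interval was computed for that count. Kif24 was the only one of 6 cilium and flagellum kinesins with a summit, and Kif1bp the only one of the other 5 genes. All 4 genes with a summit in a single replicate were thus spindle and cytokinesis kinesins, a split that depends on a few calls. The Kif3c peak called in both replicates also has its summit in an exon of 1110002L01Rik. Without that peak Kif3c has a summit in replicate 1 only. The summit of Kif20a also lies in an exon of Cdc23, and a replicate 1 peak with an intronic summit overlapped the peak of Kif22. Relatives of one subfamily were split. Kif3b and Kif3c, which each pair with Kif3a to form kinesin-2 motors, had summits and Kif3a had none, nor had Kifap3, the subunit that joins the kinesin-2 pair. All 3 kinesin-1 heavy chains, Kif5a, Kif5b and Kif5c, had none, nor had any of the 4 kinesin light chains Klc1, Klc2, Klc3 and Klc4. Kif1b and Kif1c had summits and Kif1a did not, and Kif21b had them and Kif21a did not. Both Kif13 genes had summits and neither Kif26 gene did.

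**Figure D1:**
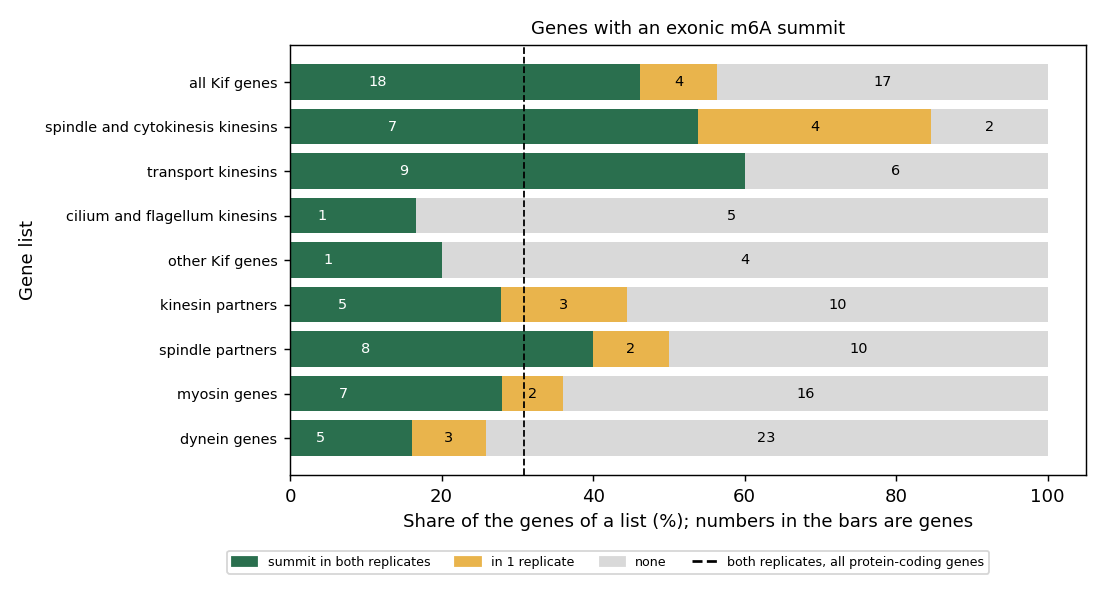
Share of the genes of each list (horizontal axis, percent) with an exonic m6A summit in both replicates, in 1 or in none, with the number of genes in each bar; the dashed line is the share of all protein-coding genes with a summit in both replicates, 30.9%. The 13 spindle and cytokinesis kinesins split into 7, 4 and 2 genes and the 15 transport kinesins into 9, 0 and 6, while the dyneins lie to the left of the line with 5 of 31.

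The plot of lists also sets the kinesins beside their partners and the other motor families. Of 18 further kinesin genes, light chains and cargo adaptors, 5 had a summit in both replicates (27.8%): Kifc1 and Kifc5b, which are minus-end-directed kinesins, Cenpe, the kinetochore kinesin, and Trak1 and Trak2, which link kinesin-1 to mitochondria. Of 20 other spindle and cytokinesis genes, 8 had one in both (40%), namely Anln, Aurka, Aurkb, Incenp, Mad2l1, Numa1, Spc24 and Tpx2. Racgap1, which forms centralspindlin with Kif23, and Prc1, which recruits Kif4 to the central spindle, had none. Myosins were taken as genes whose symbol is Myo followed by a digit, and dyneins as those whose symbol starts with Dync, Dynl or Dnah. These lists by name need not hold the whole families. The count was 7 of 25 for myosins (28%, 12.1 to 49.4) and 5 of 31 for dyneins (16.1%, 5.45 to 33.7), and both intervals overlap that of the kinesins.

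Kinesin transcripts were long, with a median of 4858 nt and 21 exons, against 2543 nt and 7 exons for all protein-coding genes. Medians were 5305 nt and 22.5 exons for the 18 with a summit in both replicates and 4858 nt and 21 exons for the 17 with none. The last exon had a median of 1524 nt in the 18 and 818 nt in the 17, and the longest internal exon 362 and 225 nt. These differences between kinesin genes with and without a summit were not tested. Some genes held several summits. Among the 18, 10 had at least 2 summits in each replicate (55.6%), against 35.2% of the 6780 genes with a summit in both. Without that condition, these were 10 of 39 kinesin genes, against 10.9% of all protein-coding genes. No interval was computed for these shares, and 18 genes give an imprecise one. Kif3b and Kif13a, 2 of the 18, had at least 3 in each replicate, as did 710 of the 6780 genes with a summit in both replicates (3.23% of all genes). How far the number of summits follows from transcript length was not tested.

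**Figure D2:**
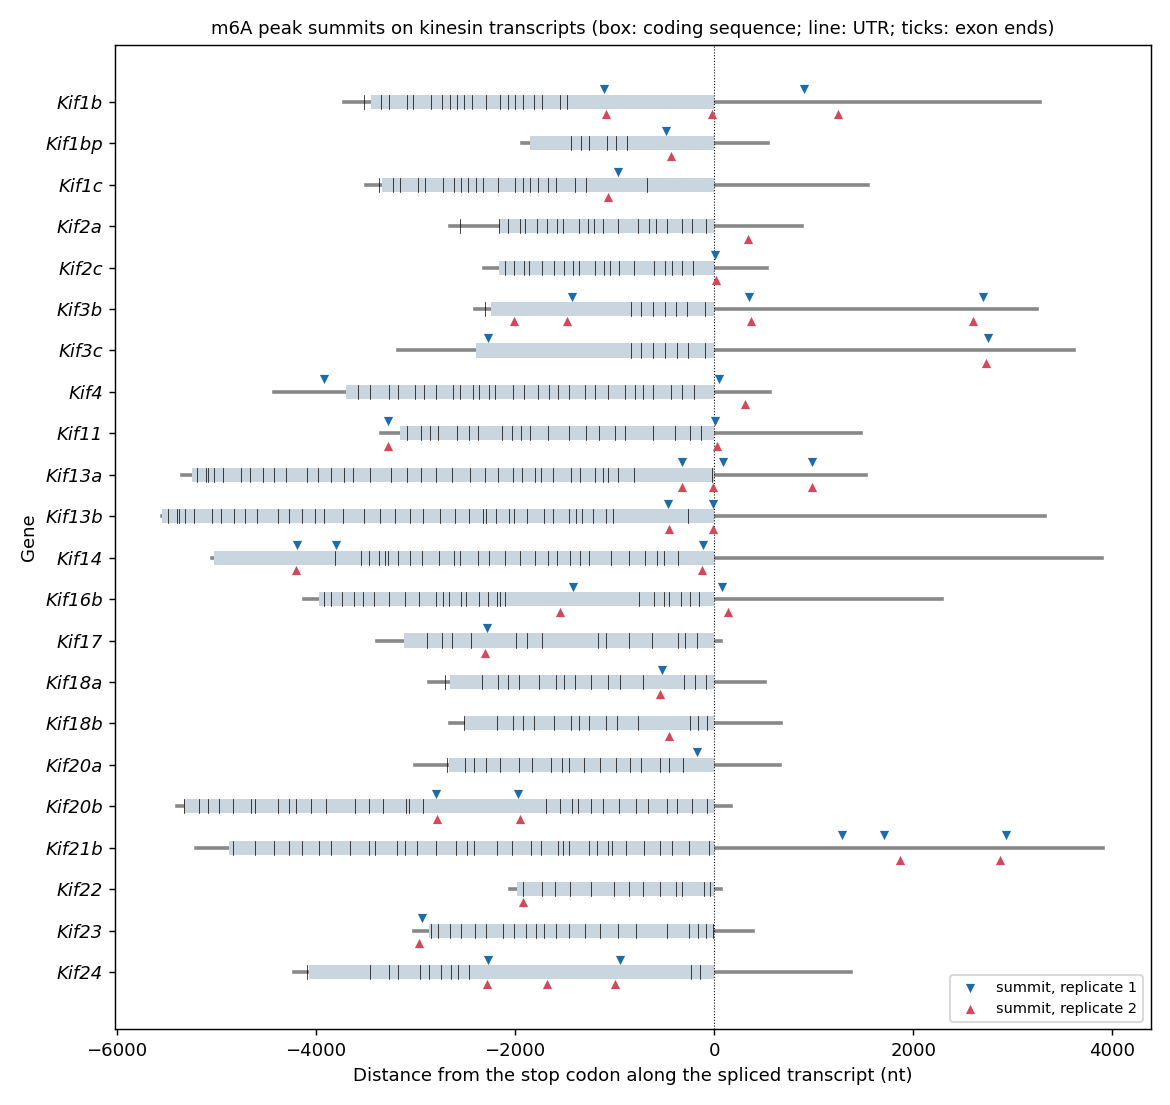
Position of each exonic summit along the spliced transcript, in nucleotides from the stop codon, for the 22 kinesin genes with a summit (downward triangles replicate 1, upward triangles replicate 2); boxes are coding sequence, lines UTRs and ticks exon ends. An isoform that holds all the gene's summits is drawn, so Kif1b is shown by its 21-exon and Kif16b by its 27-exon form. Summits of Kif13a and Kif13b sit in the second-to-last exon and at the stop codon, those of Kif20b and Kif24 within a single long exon, and those of Kif21b in the 3′ UTR.

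Among the transport kinesins, the peak with the highest fold enrichment of all kinesin genes, and the highest mean −log10 q, was that of Kif13b, which carries vesicles and binds the scaffold protein DLG. It lay in exon 39 of 40, 757 nt long, with a fold enrichment of 10.2 in replicate 1 and 9.84 in replicate 2. Its −log10 q was 43.8 and 36.8, on 68 and 61 IP reads, and its enrichment exceeded that of 96.1% and 93.0% of exonic peaks. A second peak had its summit at −8 nt from the stop codon (upstream of it) in both replicates, at 64806286, with 6.33 and 6.10-fold enrichment on 33 and 31 reads. Kif13a, which carries cargo from endosomes, had the same arrangement and 1 peak more. Its peak in exon 37 of 38 (792 nt) was enriched 4.08 and 4.76-fold on 85 and 84 reads, with −log10 q of 23.5 and 25.7. The peak at the stop codon, with summits at 91 and −11 nt from it, reached 3.18 and 3.62-fold, and that in the 3′ UTR, 983 and 986 nt past the stop codon, 2.73 and 3.18-fold. In an alignment of both coding sequences, chosen after these values were seen, 67.0% of 5131 aligned bases were identical, and the second-to-last-exon summit of Kif13b lay at −10 nt from the aligned summit of Kif13a in each replicate. The printed GGAC of Kif13b lay at −12 nt from that of Kif13a, so they are not the same site. At the stop codon the summits of replicate 2 fell on the same aligned base, whereas in replicate 1 that of Kif13a lay past the stop codon, outside the aligned sequence.

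Kif16b, an early endosome motor, had a coding peak in its exon of 1344 nt (summits at 142712357 and 142712489 on chromosome 2), enriched 3.79 and 3.49-fold on 67 and 65 reads. Its other peak, at the stop codon of the 26 and 27-exon isoforms, was enriched 3.36 and 5.13-fold on 61 and 69 reads. That stop codon is not part of the 23-exon isoform with the longest coding sequence. Kif1b, which carries mitochondria and synaptic vesicle precursors in neurons, has isoforms with different last exons. Its summits, 2 in replicate 1 and 3 in replicate 2, all lay in the last exon (4750 nt) of the 21-exon isoform, and none lay in an exon of the 49 or 47-exon isoforms. The peak in the coding part of that exon was enriched 7.46 and 8.10-fold with −log10 q of 14.7 and 18.1 on 26 and 33 reads. The 3′ UTR peak reached 7.32 and 7.16-fold on 14 reads in either replicate, with summits 344 nt apart, and a peak at the stop codon was called in replicate 2 only (4.77-fold, 14 reads). These folds stand on 1 to 3 background reads.

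Kif21b, a kinesin-4 motor that also slows microtubule growth, carried all its m6A summits in the 3′ UTR. The strongest, 2928 and 2872 nt past the stop codon (136177017 and 136176961 on chromosome 1), was enriched 5.21 and 4.999-fold on 88 and 83 reads, with −log10 q of 31.9 and 26.8. A weaker stretch nearer to the stop codon was called as 2 peaks in replicate 1 (2.91 and 3.65-fold) and as 1 peak of 1019 bp in replicate 2 (2.86-fold). Kif3b showed the same kind of difference in calling. In its exon 2 (1468 nt) replicate 1 had 1 peak of 1420 bp (3.60-fold, 78 reads), and replicate 2 had 2 peaks in the same stretch (3.24 and 4.35-fold, 67 and 63 reads). Its 3′ UTR peaks were enriched 4.08 and 4.35-fold and, farther down, 3.05 and 4.54-fold. The difference between 3 and 4 summits in Kif3b is thus one of splitting. Kif3c had a 3′ UTR peak of 3.98 and 2.86-fold, whose summit also lies in an exon of 1110002L01Rik, and the lists carry no strand. The remaining 3 sites of the group were Kif1c in exon 21 of 22 (2.73 and 3.69-fold, 28 and 30 reads), Kif17 in exon 5 of 15 (6.40 and 5.84-fold, 11 and 10 reads) and a start codon peak of Kif3c in replicate 1 only (4.004-fold, 10 reads).

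**Figure D3:**
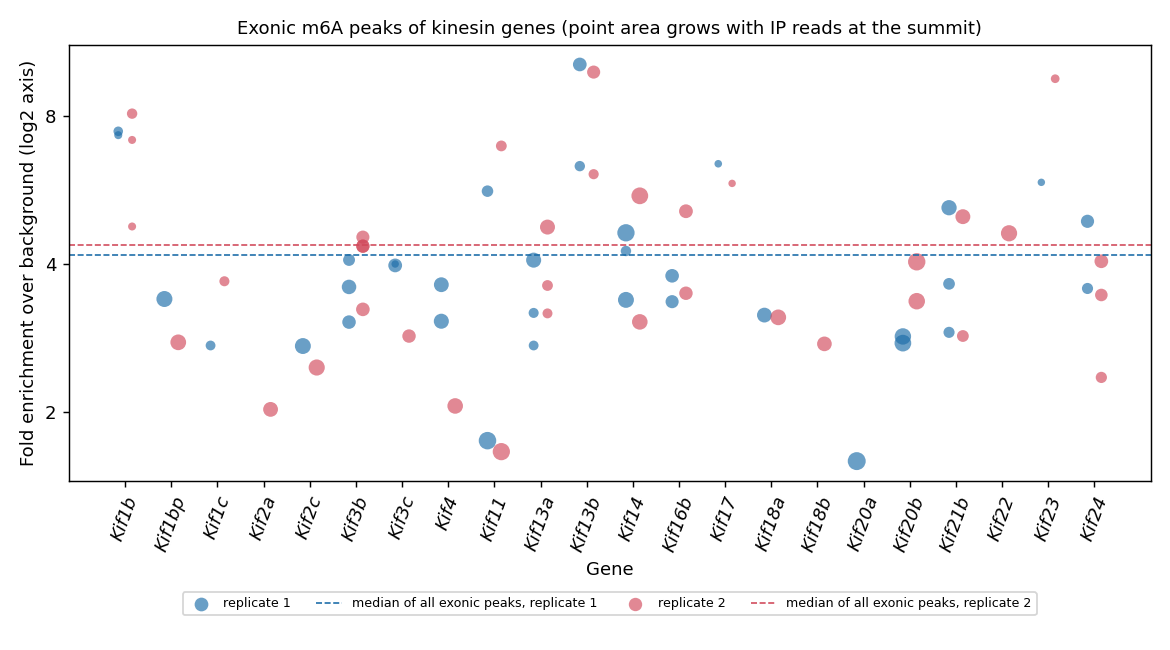
Fold enrichment over background (log2 axis) of every exonic kinesin peak by gene, replicate 1 in blue and replicate 2 in red, with a point area that grows with the IP reads at the summit; dashed lines are the medians of all exonic peaks, 4.18 and 4.39. Kif13b stands at the top on 68 and 61 reads, Kif1b, Kif17 and Kif23 are high on 10 to 33 reads, and Kif11 and Kif20a hold the lowest values on 116 to 127 reads.

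Among the spindle and cytokinesis kinesins, Kif14, which acts at the midbody with citron kinase, had the peak with the highest −log10 q, in replicate 2 the highest of all kinesin peaks. It lay in the last exon at −109 and −119 nt from the stop codon (136527505 and 136527495 on chromosome 1), with fold enrichment of 4.63 and 5.51, −log10 q of 37.2 and 38.9, and 117 and 109 reads. Its exon 1, which is 1240 nt long and mostly coding, held a second peak of 3.38 and 3.05-fold on 97 and 92 reads. A peak in exon 2 was called in replicate 1 only (4.26-fold, 33 reads). Kif20b, a kinesin-6 motor of late cytokinesis, had both its peaks in exon 19 of 32, 1234 nt long, on chromosome 19. The upstream one, with summits at 34949870 and 34949874, was enriched 2.76 and 4.05-fold (−log10 q 16.7 and 30.3) on 108 and 118 reads. The downstream one, with summits at 34950689 and 34950709, was enriched 2.85 and 3.36-fold (17.03 and 20.8) on 104 and 105 reads. IP reads were alike between replicates at both sites, and background reads were fewer in replicate 2, 27 and 29.

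Kif11, the motor that pushes the spindle poles apart, had a strong and a weak peak. The strong one, with its summit at base 37376471 in both replicates, lay at −123 nt from the start codon and was enriched 5.63 and 6.96-fold, with −log10 q of 17.8 and 17.6 on 44 and 37 reads. The weak one, 10 and 31 nt past the stop codon, was enriched 1.75 and 1.66-fold on 120 and 116 reads, so its IP pile-up was the higher of the pair, over 78.0 and 66.0 control reads before scaling. Kif18a, a kinesin-8 that dampens chromosome movement at metaphase, had its peak in exon 14 of 17 (412 nt), enriched 3.15 and 3.12-fold on 82 and 94 reads, with −log10 q of 15.8 and 16.7. Its relative Kif18b had a peak in replicate 2 only, in exon 13 of 16 (526 nt), enriched 2.75-fold on 80 reads with −log10 q of 11.5. Aligned over 2396 bases, of which 58.9% were identical, the summits of Kif18a and Kif18b in replicate 2 were 67 nt apart.

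Kif2c (MCAK), which depolymerizes microtubules at centromeres, had a peak 12 and 20 nt past the stop codon, enriched 2.73 and 2.47-fold on 97 and 100 reads, with −log10 q of 14.6 and 11.6. Its relative Kif2a had 1 peak in replicate 2, in the 3′ UTR of 2 of its coding isoforms, enriched 2.03-fold on 82 reads (−log10 q 5.66). Kif4, a chromokinesin, had a peak in its last exon with summits 48 nt past the stop codon in replicate 1 and 312 nt past it in replicate 2, enriched 3.06 and 2.06-fold on 85 and 92 reads. Another peak of Kif4 in replicate 1 (3.63-fold, 82 reads) lay in its 5′ UTR and in an exon of Pdzd11, and cannot be given to either gene. Kif20a, which brings the chromosomal passenger complex to the central spindle, had the lowest value of the set, 1.59-fold on 127 reads in replicate 1, and that summit also lies in an exon of Cdc23. Kif23, the motor of centralspindlin, had a peak in exon 1, enriched 5.87 and 9.54-fold, that rested on 10 and 19 IP reads over 1 background read. Its summits were the only placed ones among the kinesins with no DRACH within 50 nt.

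Kif22 (Kid), which pushes chromosome arms away from the poles, shows how a count by summit depends on a few bases. In replicate 2 the peak had its summit in exon 2 of 14, on the A of a GGAC 59 nt into the coding sequence, enriched 4.62-fold with −log10 q of 30.5 on 101 reads. In replicate 1 an overlapping peak of 4.50-fold on 90 reads had its summit 6 nt into intron 1 and so was not counted. Kif15, which can stand in for Kif11, was counted as having no summit, and had in replicate 1 a peak of 3.88-fold on 74 reads with its summit 8 nt into intron 2. A stronger peak that touches the start of Kif15 was called in both replicates (9.62 and 10.1-fold, 54 and 42 reads), but its summit lies in an exon of 1110059G10Rik and it may belong to that gene. When any overlap of a peak with an exon was enough, 20 of 39 kinesin genes carried a peak in both replicates (51.3%), against 32.6% of all genes, and Kif15 was among them through the peak shared with 1110059G10Rik.

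Outside these groups, Kif24, which holds back cilium formation at the mother centriole, had all its exonic summits in exon 11 of 13, 2226 nt long. The strongest peak was enriched 4.89 and 4.06-fold on 62 and 68 reads, with −log10 q of 21.3 and 17.3. It was 1279 bp wide in replicate 1, where replicate 2 had a second peak in the same stretch (3.46-fold, 55 reads). The peak farther upstream was enriched 3.57 and 2.35-fold on 40 and 41 reads. Kif1bp had 1 peak in its last exon, in the coding part, enriched 3.40 and 2.77-fold on 98 and 94 reads, with −log10 q of 21.2 and 13.6. Without Kif1bp, which the naming rule takes in although it is no motor, 17 of 38 genes had a summit in both replicates (44.7%).

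Taken over all exonic kinesin peaks, 35 in replicate 1 and 36 in replicate 2, the median fold enrichment was 3.63 and 3.87, where all exonic peaks had 4.18 and 4.39. Enrichment ranged from 1.59 to 10.2 and from 1.66 to 9.84. Median IP reads at the summit were 66 and 65 in kinesin genes and 68 and 66 in all, so the peaks rested on a like number of reads. A peak of the other replicate overlapped 31 of the 35 (88.6%, 73.3 to 96.8) and 33 of the 36 (91.7%, 77.5 to 98.2). For all exonic peaks these shares were 84.2% and 86.8%, inside both intervals. The 27 peaks that matched one to one had summits a median of 20 nt apart, from 0 to 344, and 19 lay within 50 nt. Over all 9676 exonic pairs the median was 16 nt, and 7348 lay within 50 nt. The log2 ratio of enrichment of the kinesin pairs, replicate 2 over replicate 1, had a mean of 0.06 and an SD of 0.34 (n = 27 pairs). Over all exonic pairs the SD was 0.45. The kinesin ratio ran from −0.60 for the upstream peak of Kif24 to 0.70 for Kif23. All 27 lay within 2-fold, as did 95.7% of all exonic pairs. Spearman's rho of enrichment across the 27 was 0.762 and across all exonic pairs 0.820, with pairs of one gene sharing libraries and transcript.

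**Figure D4:**
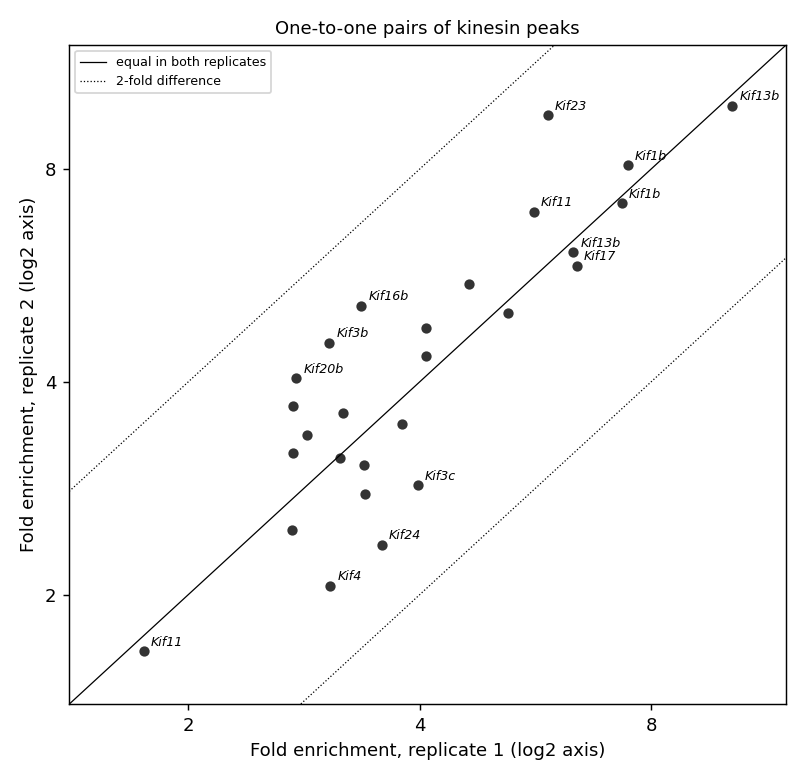
Fold enrichment of the 27 one-to-one kinesin peaks in replicate 1 (horizontal) and replicate 2 (vertical), both on log2 axes, with the line of equality and dotted lines at a 2-fold difference. All points lie within the dotted lines, as would 95.7% of all one-to-one exonic pairs. Kif13b is the highest in both, the stop codon peak of Kif11 the lowest, and Kif23 lies farthest from equality at 5.87 and 9.54.

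Positions were compared for summits that could be placed on a single gene's transcript with the longest coding sequence, 29 in replicate 1 and 30 in replicate 2. Those left out were summits of Kif1b, Kif2a, Kif3c, Kif4, Kif16b and Kif20a. Apart from the coding peak of Kif1b, they lay in UTRs or at stop codons, among them the 5′ UTR summit of Kif4. Leaving them out raises the coding share of kinesin summits, and its effect on the shares of all summits was not examined. The coding sequence away from start and stop codons held 48.3% (29.4 to 67.5) and 53.3% (34.3 to 71.7) of kinesin summits, and 33.9% and 33.7% of all. The 200 nt on either side of the stop codon held 20.7% and 16.7%, against 30.8% and 29.9% of all placed summits. The 3′ UTR beyond held 20.7% and 20%, against 17.1% and 17.4%. The start codon window held 10.3% and 10%, against 14.7% and 15.4%, and the 5′ UTR before it held none, with exact upper ends of 11.9% and 11.6%, against 3.49% and 3.51%. The coding share of all summits lay inside the kinesin interval of replicate 1 and just below that of replicate 2, and the other shares lay inside. Peak splitting adds to the coding count of replicate 2, 16 summits against 14. Kif3b and Kif24 each had 2 coding peaks there where replicate 1 had 1 wide peak, while the 3′ UTR stretch of Kif21b was split in replicate 1. Shares with split peaks counted once were not computed.

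The make-up of the transcripts differs in the same direction for coding sequence and the stop codon window, but not for the 3′ UTR. Coding sequence away from its ends makes up 58.4% of the bases of the 18 kinesin transcripts with a summit in both replicates, and 40.3% of those of all 6780 such genes. The stop codon window makes up 6.91% and 10.2%, and the last exon 34.7% and 53.7%. The 3′ UTR beyond that window makes up 27.2% and 37.9%, so it is smaller in kinesins, while its share of summits was slightly higher. The coding share of kinesin summits was not above the coding share of these bases. In this and the next comparisons with bases, the summits and the bases come from differing sets. The bases include a Kif1b isoform that held no summit, and the placed summits include those of Kif18b and Kif22, which are outside the 18. Whether transcript make-up accounts for the position shares was not tested. The stop codon window held 20.7% and 16.7% of summits on 6.91% of the bases.

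Long internal exons took up more summits than their share of bases. Internal exons of at least 400 nt held 37.9% (20.7 to 57.7) and 46.7% (28.3 to 65.7) of kinesin summits on 10.2% of the bases, and 20.7% and 20.6% of all summits on 9.03% of the bases. The share of all summits lay at the lower end of the kinesin interval in replicate 1 and below it in replicate 2. The split peaks of Kif3b and Kif24 lie in such exons and add to the 14 summits of replicate 2, against 11 in replicate 1. Of the 14 kinesin genes with such an exon, 9 had a summit in it in both replicates (64.3%, 35.1 to 87.2), namely Kif1c, Kif3b, Kif13a, Kif13b, Kif16b, Kif17, Kif18a, Kif20b and Kif24. Among all 3727 protein-coding genes with such an exon the share was 39.0%, inside that interval. Kif18b had its summit of replicate 2 in one as well. Kif7, Kif26a, Kif26b and Kif27 have such an exon and had no summit anywhere. With exons of at least 800 nt, the mean share of kinesin summits was 23.7%. The shares of all summits and of bases at that length were not computed, so this value has no background here.

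**Figure D5:**
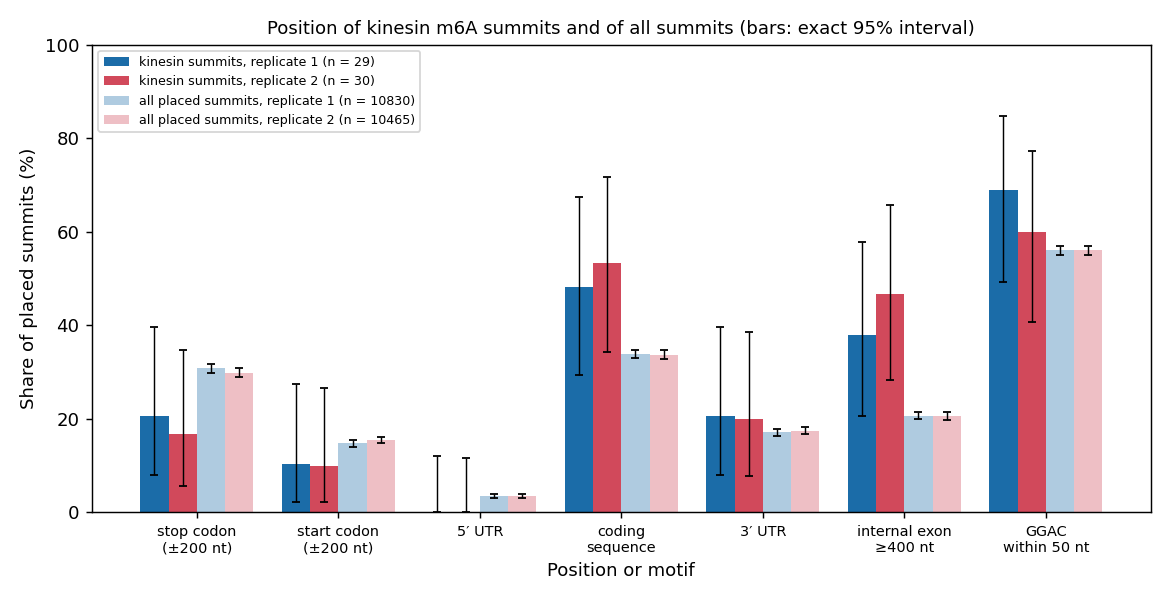
Share of placed summits (percent, bars from 0) by position and by GGAC within 50 nt, for kinesin summits (dark; 29 and 30) and all placed summits (pale; 10830 and 10465) in replicates 1 (blue) and 2 (red), with exact 95% intervals that cover counting error only. Internal exons of at least 400 nt hold 37.9% and 46.7% of kinesin summits and 20.7% and 20.6% of all; the stop codon window holds 20.7% and 16.7% of kinesin summits.

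A GGAC on the sense strand within 50 nt was present at 69.0% (49.2 to 84.7) and 60% (40.6 to 77.3) of placed kinesin summits, and at 56.1% and 56.0% of all placed summits. DRACH was present at 96.6% and 96.7%, against 93.3% in all, and it overlaps GGAC wherever the next base is A, C or T. For both motifs the share of all placed summits lay inside the kinesin intervals, which are wide. Sequence away from summits was not counted. Summits of 1 gene share a transcript and are not independent, so the intervals are, if anything, too narrow.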

How the data were processed

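m6A meRIP-seq of C57BL/6 Kit+ foetal liver cells was analysed from the peak list of each of 2 IP replicates; the 2 input samples carry no list. The authors aligned reads to GRCm38 (mm10) with HISAT2 and called peaks per replicate with MACS2 2.1.1.20160309 and nomodel, so replicates were not pooled. Control library and threshold are not given in the sources used here, and the smallest −log10 q was 1.31 and 1.30. The deposited fold is a ratio of IP pile-up to local background at the summit, with the larger library scaled down and 1 added to both. The deposited −log10 p-value and −log10 q-value belong to the same position, and the deposited score is 10 times the −log10 q cut to a whole number. The deposited summit offset gave each summit. Pile-ups in reads were recovered from fold and p, with all peaks matched within 0.001 (0.85% and 0.3% of 2000 shifted values matched).

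Exons were those of the GENCODE M21 basic set, without regard to strand. Positions used the transcript with the longest coding sequence, with summits in exons of several genes left out. Peaks overlapping by at least 1 bp were called shared. Intervals are exact Clopper-Pearson at 95% and cover counting error only, since reads are not independent molecules. With 1 group, no test between groups was run. Python 3.11.15, scipy 1.17.1 and Biopython 1.88 (global alignment) were used, and placement and read recovery were tested on simulated data.

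The genes, the role lists and the partner lists were chosen with earlier results of these data known. Full values were given for the 12 genes with the highest mean −log10 q of their strongest peak among those with a summit in both replicates, for genes with at least 3 summits in each, for spindle and cytokinesis kinesins with a summit, and for genes with a summit in 1 replicate. Alternatives were the peak threshold, the exon rule, the isoform, the windows, the overlap rule and leaving out a replicate. Dropping Kif1bp and aligning Kif13a with Kif13b and Kif18a with Kif18b were chosen after seeing the data.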

Additional observations from a re-analysis of the deposited data

Results flagged for a closer look

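Beside the exonic summits, 7 summits of replicate 1 and 6 of replicate 2 lay in introns of kinesin genes, in peaks that touched no exon, which is signal outside the main measurement. They rested on 7 to 24 and 7 to 22 IP reads, and 3 in each replicate overlapped a peak of the other. Of all peaks with a summit outside exons, 64.8% and 70.7% were shared. Intron 1 of Kif24 held 5 of them in replicate 1 and 3 in replicate 2, the nearest 10021 nt from an exon of the basic set, and 2 summits of replicate 1 lay in exons that the comprehensive annotation gives to Kif24. The shared peak in intron 12 of Kif18a was enriched 4.89 and 6.31-fold on 15 reads in either replicate. The other intronic summits were single-replicate ones in Kif5c (replicate 1) and in Kif17 (replicate 2, at 138287609 and 138301687). That at 138301687 lies in an exon that the comprehensive annotation gives to Kif17.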

How the results depend on the processing

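Of 84 recomputed values, 59 stayed within 1.5 times a count or within 1 SD over replicates. This tally was partly fixed in advance. With 1 of 2 replicates left out, a share or median always stays within 1 SD of the mean. Leaving out Kif1bp can hardly move a count, and leaving out a list always takes its summits from the summed count. The share of all genes was recomputed under 3 of the alternatives only. With a minimum fold enrichment of 4, summits fell from 71 to 32, genes with a summit in both replicates from 18 to 10 and spindle and cytokinesis kinesins from 7 to 3, shared peaks came to 79.0%, median enrichment to 5.24, and stop codon, coding and 3′ UTR shares to 15.5%, 42.3% and 19.0%, where the main means were 18.7%, 50.8% and 20.3%. The mean share of shared peaks, 90.1%, was 74.6% with 50% reciprocal overlap and 69.0% with summits within 100 bp. On the longest transcript the same 3 position shares were 21.7%, 46.6% and 21.6%. Stop codon and coding shares were 15.3% and 55.9% with windows of 100 nt, and 27.1% and 45.7%, with 15.3% in the 3′ UTR, at 400 nt. A minimum −log10 q of 5 gave 18.9% in the 3′ UTR. Long internal exons held 42.3%, and 23.7% from 800 nt on. GGAC was near 64.5%, 39.0% within 25 nt and 83.0% within 100 nt, and DRACH near 96.6%. With 1 replicate left out, 35 to 36 summits, 19 to 21 genes with a summit and 18 to 20 without remained. The cause of these shifts beyond fewer peaks or other windows was not tested.

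No paired analysis was possible because the input samples have no peak list, which leaves 1 group. With 29 and 30 placed summits, position shares have wide intervals (29.4 to 67.5% for coding sequence in replicate 1). Folds of Kif1b, Kif17, Kif23 and the start codon peak of Kif3c rest on 0.8 to 3 background reads. Expression and the methylated share of a transcript were not measured here, so a fold orders peaks within a list and is no methylation level.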
